A study of Mus musculus with 24 samples.

Results

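The comparison examined here is the upper dose step in B10.BR mice: spleens after 900 cGy of total body irradiation (TBI) against spleens after 500 cGy. Arrays were chosen by the strain and dose in their titles, which gave 3 arrays at each dose, 6 of the 24 one-colour Agilent mouse arrays of the series. Spleens were taken 24 hours after irradiation, total RNA came from all splenocytes, and each array holds RNA pooled from 3 mice. Replicates are therefore pools, and a p-value measures the spread between pools, not between single mice. The mice carried no labelled allele and received no labelled agent besides irradiation. Their age and sex are not given in the sources used here. Unirradiated B10.BR mice and B10.BR mice given 300 cGy served to place the levels, and BALB.K mice given 400 and 800 cGy, at the same time after TBI, gave the corresponding step in the other strain, with 3 arrays in each of these groups. The series design calls 900 and 800 cGy the myeloablative doses, so that the comparison addresses what separates such a dose from a lower one.

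The spleen holds B cells, T cells and phagocytes, and in mice it also makes red cells and granulocytes. Ionizing radiation breaks DNA. The transcription factor p53 then arrests or kills the cell, and resting lymphocytes and dividing precursors are among the most sensitive cells of the body, whereas macrophages and stromal cells survive better. Cells that take up damaged DNA or dying neighbours can release type I interferon, which turns on a broad set of antiviral genes. In RNA from a whole organ, fewer cells of a type and less RNA per cell cannot be told apart, which holds for every gene group described here.

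Levels are log2 processed signals relative to the 75th percentile of the same array, so that 0 is the upper quartile of the array's probes. On each of the 24 arrays 67.8% to 77.6% of 55681 probes were well above background, the 75th percentile lay at 700.1 to 1030 intensity units, and no spot was saturated. The 6 arrays fall on different slides: replicates 1 and 2 at 500 cGy were on slide 1, replicate 3 at 500 cGy and all 3 arrays at 900 cGy on slide 2. The third 500 cGy array stood apart. Its root mean square log2 distance was 0.48 to the mean of the other 500 cGy arrays and 0.45 to the 900 cGy mean, whereas the other 5 arrays lay nearer to their own group. Its RNA also held more pancreatic transcripts than the other 500 cGy pools. The B cell gene Fcmr, the T cell gene Cd3e and the red-pulp macrophage gene Adgre1 were well above background on all 6 arrays.

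Pancreatic RNA was higher at 900 than at 500 cGy. The 22 measured genes of an exocrine pancreas list (digestive enzymes and their regulators) took 0.00186%, 0.00985% and 0.211% of the summed signal at 500 cGy, and 0.639%, 0.747% and 0.9% at 900 cGy. The groups did not overlap, and the third 500 cGy array lay between the other 500 cGy arrays and all arrays at 900 cGy. The mean share was 0.0742% ± 0.119 (SD, n = 3) at 500 cGy and 0.762% ± 0.131 at 900 cGy (two-sided exact permutation test, p = 0.1, the smallest that 3 against 3 arrays allow). At 300 cGy it lay between 0.0631% and 0.795%, and without irradiation at 0.00391% or less, so that the share was not ordered by dose. Its part in the differences below was not tested. Fits with the exocrine level as a covariate, or with slide as a fixed block, which sets the 900 cGy arrays against the 500 cGy array of their own slide, give the values that follow. The exocrine level is the log2 summed signal of the exocrine list's own genes. For members such as Ctrl and Ptf1a a call lost with the covariate is therefore no separate result.

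**Figure D1:**
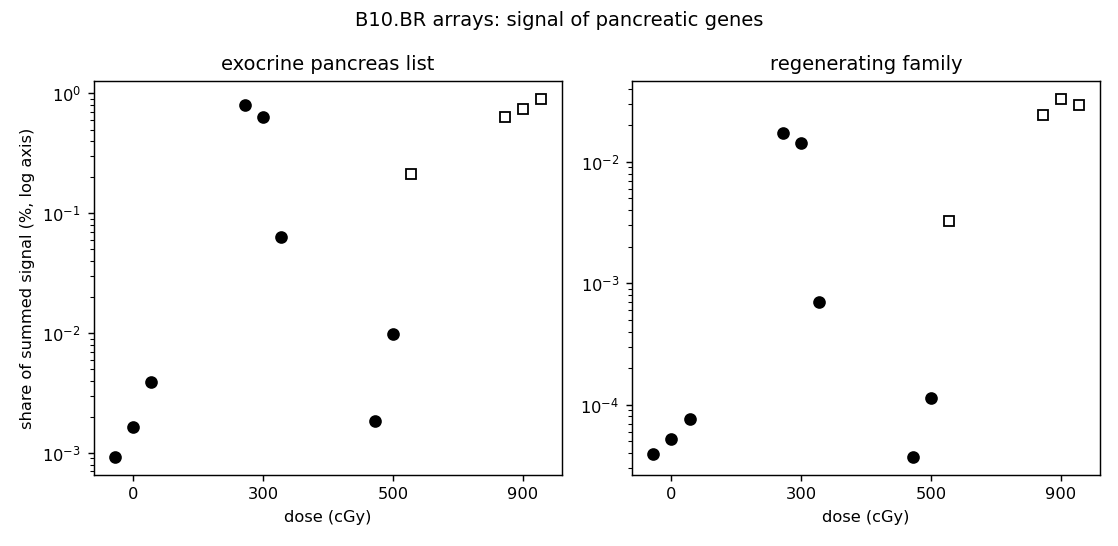
Share of each array's summed signal (percent, log axis) taken by the exocrine pancreas genes and by the Reg family, for the 4 B10.BR doses. Each point is 1 array, with filled circles for slide 1 and open squares for slide 2; all arrays at 900 cGy lie above all arrays at 500 cGy in both panels, and for the exocrine genes some 300 cGy arrays reach the 900 cGy range.

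Between the doses 1411 of 29530 features passed limma's moderated test (Benjamini-Hochberg adjusted p under 0.05), which is 4.78%: 376 (1.27%) rose and 1035 (3.5%) fell from 500 to 900 cGy. At least a 2-fold change was seen in 82 of those that rose (0.278% of all features) and in 85 of those that fell (0.288%). The median change among called features was 0.58 on the log2 scale and the median difference of all features was 0.03. Falls included lymphocyte, cell cycle, DNA replication, red cell and interferon-response genes, and rises included macrophage and pancreatic genes. Of the calls, 112 that rose and 390 that fell were kept with the exocrine covariate, and 93 and 452 with slide as a fixed block. Fitted on the 6 arrays alone, without the spread of the other groups, 237 features passed. Among called genes named here, Reg2, Ctrl, Ptf1a, Alas2, Mpo, Ctsg, Prtn3, Mmp9, Mmp3, Mmp13 and Matn1 lost their call in both fits. The call was also lost in both for Xcr1, Fscn1, Cxcl5, Cdkn1a, Igfbp3, Oas3, Isg15, Rsad2, Capg, Palb2, Rhag and Rps3. Zbp1, Ifit1, Orc1, Ccna2, Mki67, H2-Ob, Atp6v0d2, Il12b, Gsta3, Bik and Rps18 lost it with the covariate, and Reg3b, Reg3a, Hbb-bt, H2ax, Glb1 and Eomes with the slide block.

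**Figure D2:**
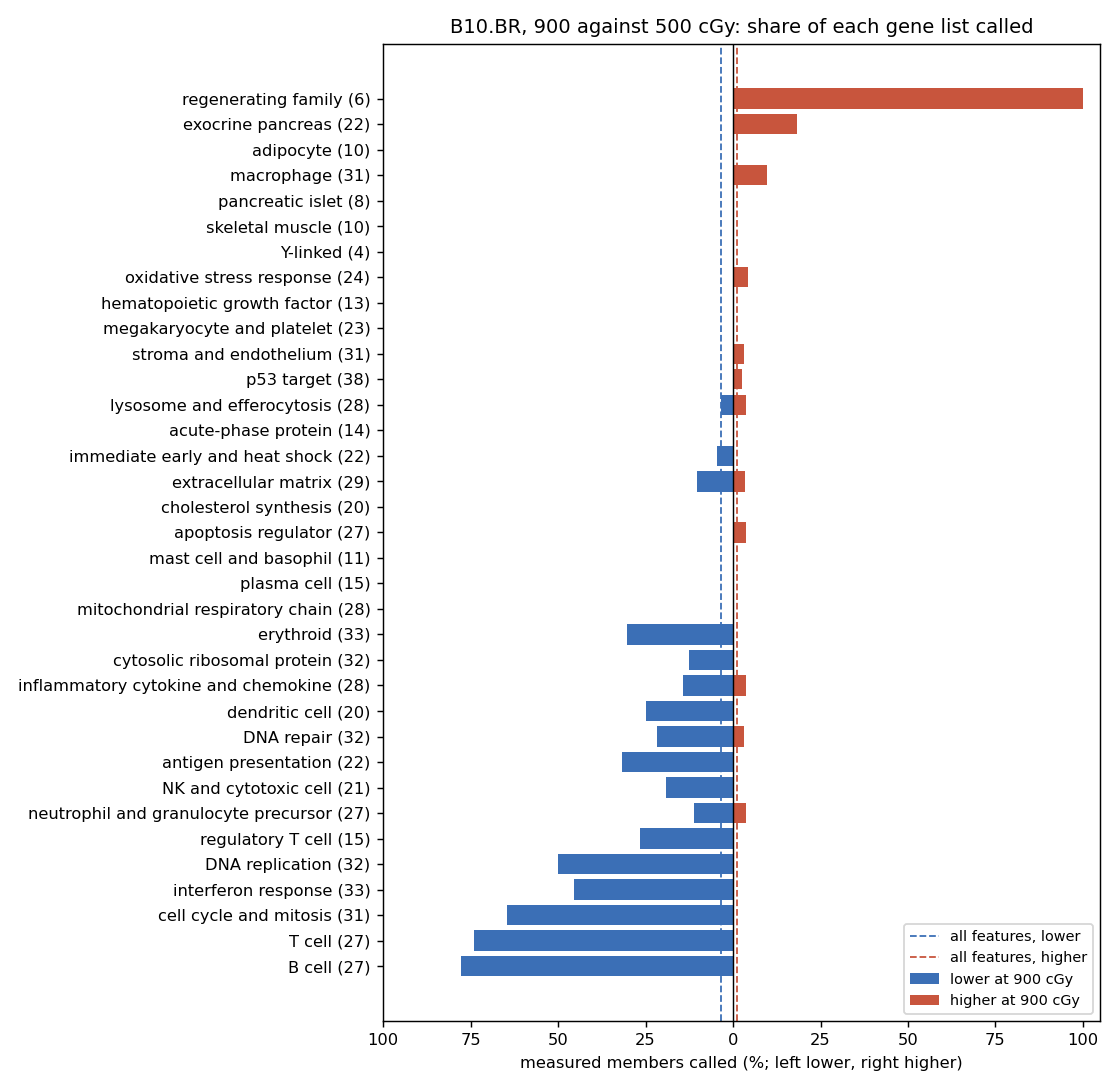
Percent of the measured members of each gene list called lower (bars to the left) or higher (bars to the right) at 900 than at 500 cGy, lists ordered by their median difference. Dashed lines mark the share of all 29530 features, 3.5% lower and 1.27% higher; the B cell, T cell, cell cycle and DNA replication lists reach far past the lower line.

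T cell genes fell together, and the genes of the CD8 chains had the largest falls among those called. Of 27 measured T cell genes, 20 fell and none rose, against 3.5% of all features that fell, and the list's median difference was -0.72. Cd8a, a chain of the coreceptor of cytotoxic T cells, lay at 0.40, 0.38 and 0.40 at 500 cGy and at -1.11, -0.86 and -0.89 at 900 cGy. The 500 cGy arrays were almost equal and all lay above the 900 cGy arrays (difference -1.34 ± 0.09 SE, 2.54-fold lower, limma adjusted p = 8.28e-08). Cd8b1, the other chain, read -0.94, -1.18 and -0.79 at 500 cGy and -2.89, -2.65 and -2.52 at 900 cGy, with no overlap (-1.72 ± 0.13, adjusted p = 1.3e-06). Lef1, a transcription factor of naive T cells, fell by 0.99 ± 0.15, and Cd3e, part of the T cell receptor complex, by 0.78 ± 0.10. The coreceptor gene of helper T cells, Cd4, which was picked after its values were seen, read 2.66, 2.41 and 2.38 at 500 cGy and 2.41, 2.38 and 2.28 at 900 cGy. Its groups overlapped and it did not pass (-0.12 ± 0.10, adjusted p = 0.557); whether it differed from Cd8a was not tested. Of 15 regulatory T cell genes 4 fell, among them Foxp3, their lineage factor (-0.51 ± 0.10), and Tnfrsf4, the costimulatory receptor OX40 (-0.83 ± 0.13).

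One receptor kept its level up to 500 cGy. Ccr7, the chemokine receptor that guides naive T cells and mature dendritic cells into lymphoid tissue, averaged 5.57 without irradiation, 5.38 at 300 cGy and 5.34 at 500 cGy. It read 5.40, 5.31 and 5.31 at 500 cGy and 4.30, 4.32 and 4.29 at 900 cGy. The 900 cGy arrays lay within a narrow band well below every array of the lower doses (-1.04 ± 0.10, 2.05-fold lower, limma adjusted p = 1.37e-05). By contrast Cd8a averaged 2.28 without irradiation, 1.18 at 300 cGy, 0.39 at 500 cGy and -0.95 at 900 cGy, a fall at each step. The steps from 300 to 500 and from 500 to 900 cGy share the 500 cGy arrays and differ in size, and the difference between them was not tested.

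**Figure D3:**
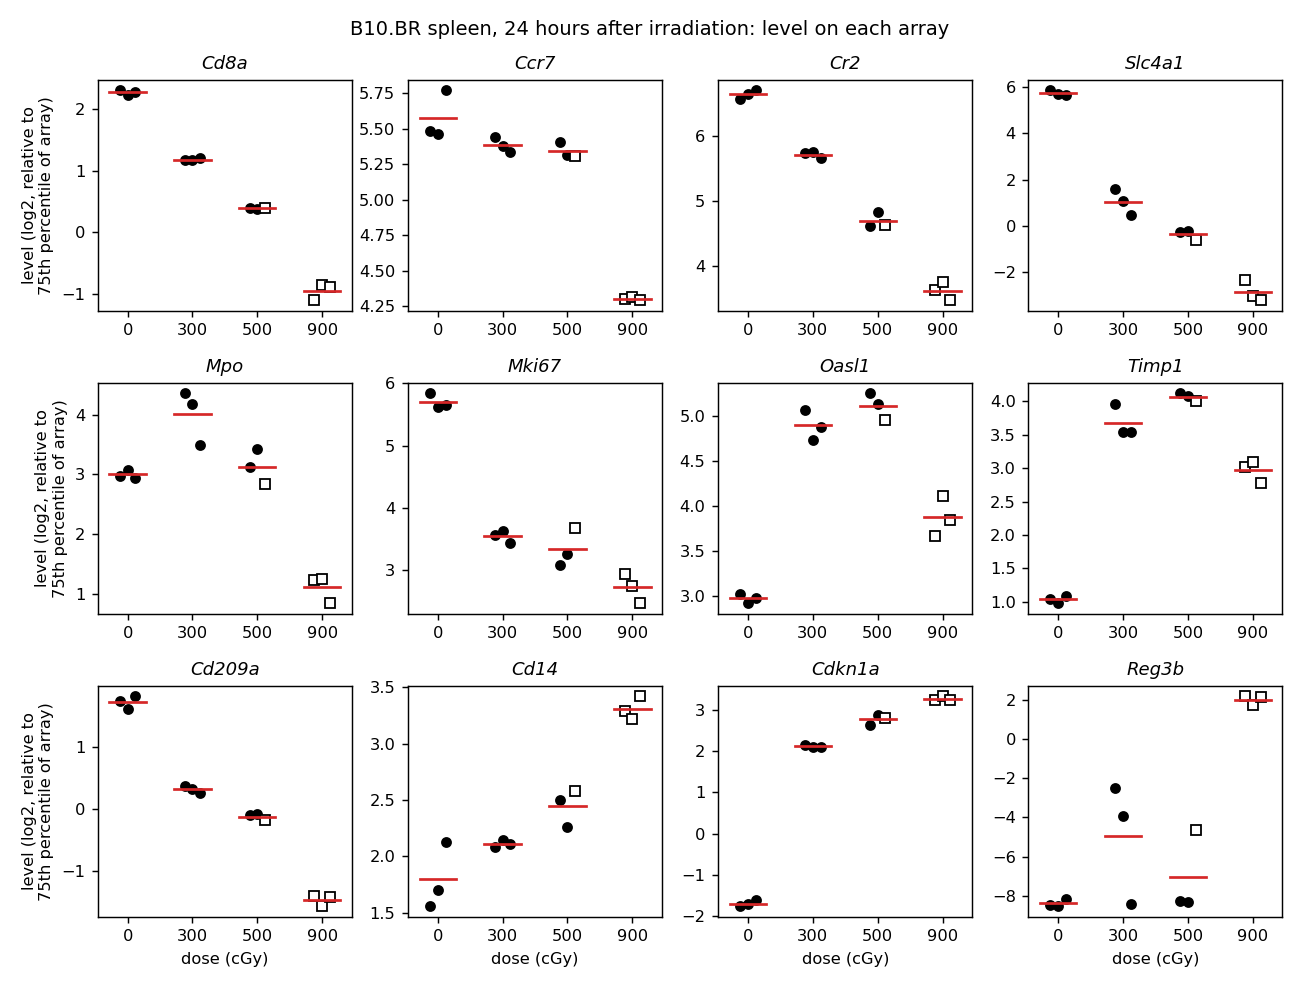
Level (log2, relative to the array's 75th percentile) of 12 genes on the 3 arrays of each B10.BR dose, in cGy, with filled circles for slide 1, open squares for slide 2 and a red line at each group mean. Ccr7 stays near 5.4 up to 500 cGy and lies near 4.3 at 900 cGy, whereas Cd8a steps down at every dose; Timp1 and Oasl1 are highest at 500 cGy.

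B cell genes fell to a similar extent. Of 27 measured, 21 fell and none rose (median -0.72), against 3.5% of all features that fell. For 24 all 900 cGy arrays lay below all 500 cGy arrays, a separation that 13.2% of all features showed. Cr2, the complement receptor of mature B cells and follicular dendritic cells, read 4.62, 4.83 and 4.64 at 500 cGy and 3.64, 3.76 and 3.48 at 900 cGy, with no overlap (-1.07 ± 0.10, 2.09-fold lower, limma adjusted p = 1.31e-05). Fcmr, the receptor for IgM, read 4.83, 4.87 and 4.76 against 3.67, 3.90 and 3.56 (-1.11 ± 0.11). Vpreb3, expressed in immature B cells, fell by 1.04 ± 0.12 and Fcrla, an Fc receptor-like protein of B cells, by 0.92. None of 15 plasma cell genes passed limma's adjusted test (median -0.11), and 3 had an unadjusted p under 0.05. From 300 to 500 cGy, which shares the 500 cGy arrays, 21 B cell genes and 13 T cell genes fell (median differences -0.66 and -0.51), against 0.867% of all features. With the exocrine covariate 16 B cell and 15 T cell genes fell over the upper step, and with slide as a fixed block 20 and 17.

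Genes of antigen presentation, natural killer (NK) cells and dendritic cells fell in part. Of 22 antigen presentation genes 7 fell and none rose (median -0.26), against 3.5% of all features that fell. These were led by H2-Oa and H2-Ob (-0.92 ± 0.10 and -0.76), the chains of the H2-O molecule that B cells use to restrain peptide loading, and included Cd74, the invariant chain (-0.56 ± 0.10), and Nlrc5, the activator of class I genes (-0.56). Of 21 NK and cytotoxic genes 4 fell, among them Klrd1, a chain of inhibitory NK receptors (-0.54 ± 0.09), and Eomes, a transcription factor of NK and memory T cells (-0.54). That count was 1 without the first array of either dose and 1 with slide as a fixed block, and 2 with the exocrine covariate or without the third 900 cGy array. Of 20 dendritic cell genes 5 fell and none rose (median -0.20), and 2 fell with either setting or without the third 900 cGy array and 3 without the second 500 cGy array. Cd209a, a lectin of dendritic cells, read -0.11, -0.09 and -0.19 at 500 cGy and -1.41, -1.58 and -1.42 at 900 cGy. The gap was many times the spread within either dose (-1.34 ± 0.13, 2.53-fold lower, limma adjusted p = 1.41e-05). Flt3, the receptor for a growth factor that dendritic cells need, read 2.39, 2.36 and 2.30 at 500 cGy and 1.46, 1.53 and 1.19 at 900 cGy (-0.96 ± 0.10), and Xcr1, a receptor of cross-presenting dendritic cells, read -0.67, -0.80 and -1.03 against -1.35, -1.44 and -1.59 (-0.63 ± 0.13). Both sets were without overlap. Xcr1 did not pass with slide as a fixed block (adjusted p = 0.275) or with the exocrine covariate (0.133).

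Genes of dividing cells, already low at 500 cGy, were lower still at 900 cGy. Of 31 cell cycle and mitosis genes 20 fell and none rose (median -0.66), and of 32 DNA replication genes 16 fell and none rose (median -0.49). Over all features 3.5% fell. Mki67, a marker of cycling cells, averaged 5.70 without irradiation and read 3.09, 3.26 and 3.67 at 500 cGy and 2.95, 2.75 and 2.47 at 900 cGy. The groups did not overlap, though the first 900 cGy array came near the first 500 cGy array, and the third 500 cGy array was the highest (-0.62, limma adjusted p = 0.0296). Ccna2, cyclin A2 of S phase and mitosis, read 1.19, 1.42 and 1.60 against 0.77, 0.57 and 0.34 (-0.84 ± 0.18). Mcm5, part of the replicative helicase, read 1.90, 1.99 and 2.12 against 1.16, 1.28 and 1.28 (-0.77 ± 0.11, adjusted p = 0.000586), clearly lower on every 900 cGy array. Orc1, of the origin recognition complex, fell by 0.95 ± 0.20, Pole, the catalytic subunit of a replicative polymerase, by 0.78, and the growth regulator Myc by 0.89 ± 0.14. The cell cycle count rested on single arrays: 8 genes fell without the third 500 cGy array and 8 without the third 900 cGy array. With the exocrine covariate 6 cell cycle and 8 replication genes fell, and with slide as a fixed block 20 and 9. Fitted on the 6 arrays alone, no cell cycle gene and 3 replication genes fell. Under spike-in scaling none of either fell (median -0.49 and -0.32).

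Of 32 DNA repair genes 7 fell and 1 rose (median -0.24), against 3.5% and 1.27% of all features. Fanca, a core protein of the Fanconi anemia pathway for DNA crosslinks, read 1.20, 1.12 and 1.21 at 500 cGy and 0.21, 0.20 and 0.07 at 900 cGy, a separation many times the spread (-1.02, 2.02-fold lower, limma adjusted p = 2.72e-05). H2ax, the histone variant phosphorylated at DNA breaks, read 3.73, 3.71 and 3.66 against 3.00, 3.16 and 2.94 (-0.67 ± 0.11). Palb2, a partner of the BRCA proteins, was the gene that rose (0.52). Without any single one of the 6 arrays, 3 to 5 of the 32 fell.

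For p53 targets the share called was near that of all features. Of 38 measured 1 rose, where 1.27% of all features did, and none fell (median difference 0.08, turning to -0.01 under median scaling). Before adjustment 12 of the 38 had a limma p under 0.05, a larger share than the 5583 of all 29530 features. The median of the p53 targets was 0.92 above the unirradiated level at 500 cGy and 0.93 above it at 900 cGy, 2 differences that share the unirradiated arrays. The gene that rose was Cdkn1a, the cell cycle inhibitor p21. It averaged -1.70 without irradiation, 2.11 at 300 cGy, and read 2.63, 2.86 and 2.81 at 500 cGy and 3.23, 3.32 and 3.23 at 900 cGy. All 900 cGy arrays were above all 500 cGy arrays (0.49 ± 0.10, 1.41-fold higher, limma adjusted p = 0.00747); the call was lost with slide as a fixed block (adjusted p = 0.102), with the exocrine covariate (0.058) and under median scaling (0.0725). Mdm2, which degrades p53, read 4.98, 5.04 and 5.01 against 5.31, 5.04 and 5.17, with overlap. Ccng1 differed by 0.32 ± 0.13, Bax, a pore-forming death protein, by -0.11 ± 0.08, and Gdf15, a stress-induced cytokine, by 0.55 ± 0.21, none of which passed. Of 27 apoptosis regulators only Bik, a death-promoting BCL2-family protein, rose (0.47 ± 0.12) and none fell. Rprm, a p53-induced inhibitor of mitotic entry, was picked after its values were seen. It read -1.86, -1.66 and -1.51 at 500 cGy and -0.75, -0.81 and -0.70 at 900 cGy, without overlap (0.92 ± 0.16, adjusted p = 0.0022).

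Red cell genes, far under their unirradiated level at 500 cGy, fell further in part. The median difference from unirradiated spleen was -3.85 at 500 cGy and -4.40 at 900 cGy. Of 33 measured erythroid genes 10 fell over the step and none rose, against 3.5% of all features that fell. The list's median was -0.15 and turned to 0.02 under spike-in scaling. Measured genes were well above background on every array of at least 1 group of the series, not always at these doses. Rhd, 1 of the 10, was well above background on no array of either dose. Slc4a1, the anion exchanger of the red cell membrane, averaged 5.73 without irradiation and 1.05 at 300 cGy. It read -0.27, -0.20 and -0.59 at 500 cGy and -2.34, -3.02 and -3.20 at 900 cGy. No array came near the other group (-2.50 ± 0.30, 5.66-fold lower, limma adjusted p = 8.15e-05). Kel, the Kell blood group protein, and Epb42, which anchors the anion exchanger to the membrane skeleton, were well above background on all 500 cGy arrays and on none at 900 cGy. Set against the detection floor of the 900 cGy arrays, Kel was at least 3.25-fold lower and Epb42 at least 1.66-fold lower. The floor is, per array, the higher of the lowest signal among probes well above background and the probe's own signal. Alas2, the enzyme that starts heme synthesis in red cells, read 2.50, 1.61 and 1.42 against 0.77, -0.41 and -0.54, without overlap (-1.90 ± 0.41), and Hbb-bt, a beta globin, read 7.03, 6.30 and 6.07 against 5.08, 4.08 and 3.75 (-2.16). Globin genes are near-identical copies, so that their probes may read one another. Gata1, the master transcription factor of the lineage, which megakaryocytes and mast cells also express, was picked after its values were seen. It read 2.33, 2.17 and 1.72 at 500 cGy and 2.33, 2.09 and 1.63 at 900 cGy, the same range (-0.06 ± 0.25, adjusted p = 0.944), and Klf1, an erythroid transcription factor, did not pass (-0.62, adjusted p = 0.26). With slide as a fixed block 5 erythroid genes fell. Another background correction, normexp, lost the calls of Epb42, Kel, Ahsp, Rhd and Rhag, so that these falls depend on how background is removed.

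GATA1 activates red cell genes through GATA sites, and the 250 bases before the start of 3 genes that fell are printed to show where such letters lie (RefSeq, GRCm38.p6, 5' to 3' on the gene's strand, with capitals marking AGATAA on either strand).
Epb42, chr2:121036878-121037127, minus strand: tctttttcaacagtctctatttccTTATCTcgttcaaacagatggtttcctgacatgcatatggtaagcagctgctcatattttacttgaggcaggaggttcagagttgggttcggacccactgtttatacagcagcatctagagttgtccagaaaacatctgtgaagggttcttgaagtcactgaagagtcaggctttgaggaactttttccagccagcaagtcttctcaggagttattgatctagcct
Kel, chr6:41704326-41704575, minus strand: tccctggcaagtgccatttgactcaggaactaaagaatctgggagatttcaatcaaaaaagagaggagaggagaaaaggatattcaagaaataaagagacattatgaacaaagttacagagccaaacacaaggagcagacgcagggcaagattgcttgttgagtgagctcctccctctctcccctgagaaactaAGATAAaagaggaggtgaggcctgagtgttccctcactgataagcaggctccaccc
Alas2, chrX:150547167-150547416, plus strand: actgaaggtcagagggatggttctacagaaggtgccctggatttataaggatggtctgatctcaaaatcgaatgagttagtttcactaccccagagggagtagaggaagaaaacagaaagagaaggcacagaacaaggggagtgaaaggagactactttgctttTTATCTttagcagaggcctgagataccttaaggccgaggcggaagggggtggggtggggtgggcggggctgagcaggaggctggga
The letters began 226, 56 and 86 bases before the start. Of the called erythroid genes with an entry, 5 of 7 (71.4%) held them, of those not called 3 of 14 (21.4%), and of all 32851 windows of that length 3281 (9.99%). Among the 5, Epb42, Kel and Rhd lost their call with normexp background correction. Rhd was not well above background on any array of either dose compared. A match of letters is a description and shows no binding.

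Granule protease and peroxidase genes of granulocyte precursors were among those that fell. Of 27 neutrophil and granulocyte precursor genes 3 fell and 1 rose (median -0.33), against 3.5% and 1.27% of all features. None fell without the third 900 cGy array, and 1 fell without the second 500 cGy array. Mpo, the peroxidase packed into the first granules a precursor makes, read 3.13, 3.42 and 2.83 at 500 cGy and 1.24, 1.26 and 0.85 at 900 cGy. The groups were well separated (-2.01 ± 0.42, 4.03-fold lower, limma adjusted p = 0.00904). Ctsg, cathepsin G of the same granules, read 2.62, 2.73 and 2.03 against 0.44, 0.43 and 0.10 (-2.14 ± 0.46), and Prtn3, proteinase 3, fell by 1.30 ± 0.29. S100a8, an abundant protein of mature neutrophils, read 5.82, 5.93 and 5.71 against 5.34, 5.57 and 4.99 (-0.52, adjusted p = 0.266). Mmp9, a gelatinase of late granules, read -0.49, -0.16 and -0.25 against 0.40, 0.07 and 0.54, and rose (0.63 ± 0.15). The call of Mpo was lost with slide as a fixed block (-1.72, adjusted p = 0.157) and with the exocrine covariate (-1.63, 0.122). Those of Ctsg, Prtn3 and Mmp9 were lost in both as well. None of 23 megakaryocyte and platelet genes and none of 11 mast cell genes passed limma's test after adjustment, and 1 and 0 had an unadjusted p under 0.05.

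Interferon-response genes were lower at 900 than at 500 cGy. The list's median stood 2.04 above the unirradiated level at 500 cGy and 1.48 above it at 900 cGy. Of 33 measured genes all 33 had a difference below 0. For 31 all 900 cGy arrays lay below all 500 cGy arrays, against 13.2% of all features. In limma's test 15 fell and none rose (median -0.52), against 3.5% of all features that fell. Oasl1, an oligoadenylate synthetase-like regulator of interferon, averaged 2.97 without irradiation and 4.89 at 300 cGy. It read 5.25, 5.13 and 4.95 at 500 cGy and 3.67, 4.11 and 3.84 at 900 cGy, without overlap (-1.24 ± 0.18, 2.36-fold lower, limma adjusted p = 0.000404). Zbp1, a sensor of Z-form nucleic acid that can trigger necroptosis, read 3.57, 3.58 and 3.69 against 2.62, 2.85 and 2.65 (-0.91 ± 0.16). Ifit1, which binds foreign RNA caps, read 3.48, 3.57 and 3.45 against 2.50, 2.96 and 2.45 (-0.87 ± 0.17), so that its second 900 cGy array was the highest of its group, as it was for Oasl1 and Zbp1. Oas3, which makes the messenger that activates RNase L, fell by 0.82 ± 0.21 and Isg15, a ubiquitin-like modifier, by 0.73 ± 0.18. Ifit3 (-0.52, adjusted p = 0.126) and Irf7, the factor that amplifies interferon (-0.23, adjusted p = 0.655), did not pass. Grouped by name after their values were seen, all 11 Oas genes, all 6 Ifit genes and all 11 Ifi200 genes measured had differences below 0. Of them 4, 1 and 7 fell. The Oas and Ifit groups hold genes already counted in the list, such as Oas3, Oasl1 and Ifit1, and are no separate result for these. Of 10 Schlafen genes, another interferon-inducible family, 7 were below 0 and 1 fell.

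The interferon count depended on single arrays and on the settings more than its direction did. It was 4 of 33 without the third 900 cGy array, 5 without the first and 6 without the second 500 cGy array, 7 without the first 900 cGy array, and 12 without either of the remaining arrays. With the exocrine covariate 2 fell (median -0.34), and with slide as a fixed block 6. Fitted on the 6 arrays alone 2 fell, and under spike-in scaling none did (median -0.36). The median was -0.52 against the slide 2 array at 500 cGy and -0.56 against those on slide 1. Rsad2 was called without the block only (-0.76, adjusted p = 0.0513 with a replicate block).

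**Figure D4:**
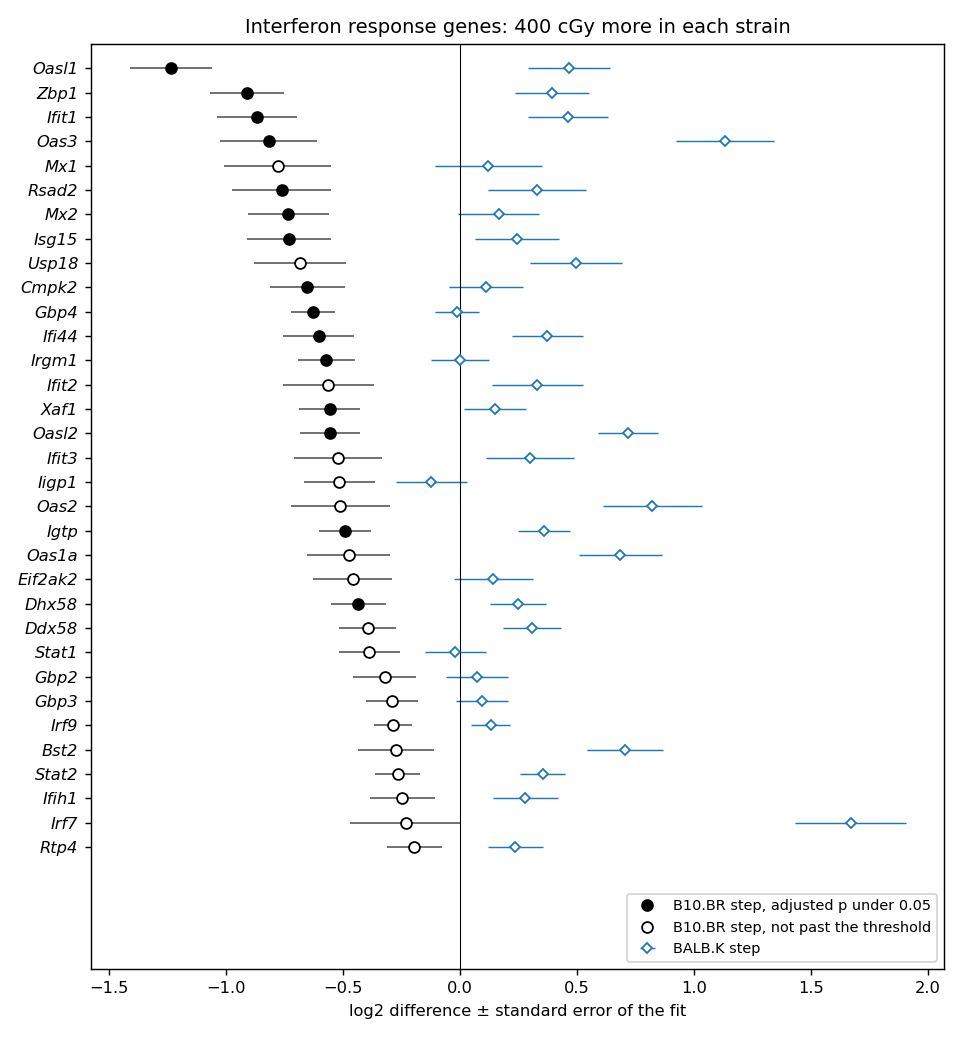
Difference between the higher and the lower dose (log2) for 33 interferon-response genes: circles give B10.BR at 900 minus 500 cGy with its standard error, filled where the adjusted p was under 0.05, and blue diamonds BALB.K at 800 minus 400 cGy. All 33 circles lie below 0, and every diamond lies to the right of its circle.

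Interferon-response genes are switched on through a paired GAAA element, and 3 of those that fell are printed with its core in capitals, GAAA, any 2 bases and GAAA again on either strand, from the 250 bases before each start (RefSeq, GRCm38.p6, 5' to 3' on the gene's strand).
Ifit1, chr19:34640639-34640888, plus strand: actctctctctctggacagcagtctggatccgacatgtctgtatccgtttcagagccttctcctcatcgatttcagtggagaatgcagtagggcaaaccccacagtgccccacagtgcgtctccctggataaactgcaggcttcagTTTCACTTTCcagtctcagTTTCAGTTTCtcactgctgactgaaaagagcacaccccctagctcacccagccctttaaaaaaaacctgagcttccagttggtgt
Oas3, chr5:120777660-120777909, minus strand: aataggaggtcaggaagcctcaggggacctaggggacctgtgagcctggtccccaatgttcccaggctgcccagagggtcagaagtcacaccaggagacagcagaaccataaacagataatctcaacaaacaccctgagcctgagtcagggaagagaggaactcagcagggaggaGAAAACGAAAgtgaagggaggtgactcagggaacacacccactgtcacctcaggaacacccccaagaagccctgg
Rsad2, chr12:26456453-26456702, minus strand: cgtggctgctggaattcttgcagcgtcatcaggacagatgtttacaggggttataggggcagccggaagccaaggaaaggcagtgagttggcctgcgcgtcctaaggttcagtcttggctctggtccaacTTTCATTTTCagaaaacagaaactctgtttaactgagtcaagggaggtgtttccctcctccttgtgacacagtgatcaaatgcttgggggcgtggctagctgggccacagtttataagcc
Ifit1 held the core at 104 and at 85 bases before the start, Oas3 at 75 and Rsad2 at 120. Among list members with an entry, 6 of 11 that fell (54.5%) and 6 of 12 that did not pass (50%) held it, against 978 of 32851 windows (2.98%).

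Macrophage genes were mostly higher, though few passed. Of 31 measured, 27 had differences above 0 and 13 had all 900 cGy arrays above all 500 cGy arrays, where 13.9% of all features did. In limma's test 3 rose and none fell (median 0.28), against 1.27% of all features that rose. Cd14, the co-receptor for bacterial lipopolysaccharide, read 2.50, 2.26 and 2.58 at 500 cGy and 3.29, 3.22 and 3.42 at 900 cGy, with no overlap (0.86 ± 0.12, 1.82-fold higher, limma adjusted p = 0.00035). Adgre1, the F4/80 antigen, read 4.93, 4.66 and 4.38 against 5.10, 5.06 and 5.17 (0.46 ± 0.10). The third 500 cGy array was its lowest. C1qb, a complement chain made by macrophages, differed by 0.44 ± 0.18 without passing (adjusted p = 0.186). Under median scaling Adgre1 did not pass (adjusted p = 0.0511). With the exocrine covariate 5 macrophage genes rose, and 1 rose without the second 500 cGy array or the third 900 cGy array.

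Matrix genes went both ways. Over 29 matrix and wound genes 3 fell and 1 rose (median 0.00), against 3.5% and 1.27% of all features. Only 1 fell without any single one of the 6 arrays. Timp1, an inhibitor of metalloproteinases, averaged 1.04 without irradiation and 3.68 at 300 cGy. It read 4.12, 4.07 and 4.0 at 500 cGy and 3.02, 3.10 and 2.78 at 900 cGy, with a wide gap (-1.10 ± 0.11, 2.14-fold lower, limma adjusted p = 1.86e-05). Mmp3, stromelysin, read 3.45, 3.52 and 3.54 against 2.02, 2.17 and 2.06, also without overlap (-1.42 ± 0.39, adjusted p = 0.0409, and 0.0571 with a replicate block). Mmp13, a collagenase, fell by 0.75 ± 0.21 (adjusted p = 0.0566 with a replicate block). Neither Mmp3 nor Mmp13 passed when any 1 array of the 6 was left out. Matn1, a cartilage matrix protein, averaged -4.10 without irradiation and rose over the step (0.72 ± 0.17). Its arrays read 0.64, 0.57 and 0.45 against 1.55, 1.16 and 1.11. Of 31 stromal and endothelial genes 1 rose and none fell (median 0.12).

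Cytokine and chemokine genes went both ways. Of 28 measured, 4 fell and 1 rose (median -0.18), against 3.5% and 1.27% of all features. Only 2 fell without any 1 of 4 arrays, the second and the third at 500 cGy and the first and the second at 900 cGy. Ccl3, a macrophage inflammatory protein, read -0.31, -0.36 and -0.15 against -1.11, -0.99 and -0.82, without overlap (-0.70 ± 0.14). Ccl9, a chemokine of myeloid cells, read 1.47, 1.34 and 1.35 against 0.86, 0.59 and 0.50 (-0.74 ± 0.11), and Il12b, a subunit of interleukins 12 and 23, fell by 0.61. Cxcl5, which draws neutrophils, read 0.58, 0.49 and 0.73 against 1.20, 1.08 and 1.49, and rose (0.66 ± 0.14). Ccl2, which draws monocytes, did not pass (-0.53, adjusted p = 0.0914).

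Genes of protein synthesis and respiration were slightly lower. Of 32 cytosolic ribosomal protein genes 4 fell and none rose, against 3.5% of all features that fell. Differences were below 0 for 30, and 15 had all 900 cGy arrays below all 500 cGy arrays, against 13.2% of all features. The median was -0.16, turned to 0.01 under spike-in scaling, and none fell without the second 500 cGy array, the first 900 cGy array or the third 900 cGy array. Rps18 and Rps3 did not pass with a replicate block (adjusted p = 0.0553 and 0.051), and another Rps3 probe differed by 0.01. Of 28 respiratory chain genes 26 had differences below 0 and 11 did not overlap (median -0.12, and 0.05 under spike-in scaling). Of 24 oxidative stress genes 1 rose, Gsta3, a glutathione transferase (0.60), and none fell. Of 28 lysosome and efferocytosis genes Glb1, a lysosomal galactosidase, rose (0.35) and Atp6v0d2, a proton pump subunit, fell (-0.91). Of 22 immediate early and heat shock genes 1 fell. No gene passed limma's adjusted test among 28 of the mitochondrial respiratory chain, 20 of cholesterol synthesis, 14 acute-phase and 13 hematopoietic growth factor genes, of which 6, 2, 2 and 3 had an unadjusted p under 0.05.

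The Reg genes, which encode secreted lectins made by pancreas and gut on injury, were far higher at 900 cGy. All 6 measured rose (median 6.50), against 1.27% of all features. But 3 rose with the exocrine covariate and none with slide as a fixed block. Without the first or the second 500 cGy array or the third 900 cGy array, 4 rose. Reg3b read -8.26, -8.31 and -4.62 at 500 cGy, where it was above background on the third array alone, and 2.19, 1.75 and 2.14 at 900 cGy. Every 900 cGy array was far above every 500 cGy array, and because 500 cGy arrays not above background enter the mean, the size of the difference is uncertain (9.09 ± 1.57, limma adjusted p = 0.00199). With slide as a fixed block the difference was 6.65 and did not pass (adjusted p = 0.124). Reg2 read -7.60, -7.57 and -1.23 against 3.92, 3.64 and 2.97 (8.97 ± 1.82), also above background on 1 of the 500 cGy arrays, and Reg3a was at least 14.6-fold higher, set against the floor at 500 cGy. The third 500 cGy array again stood between the groups. As shares of summed signal the Reg genes took 3.72e-05%, 0.000114% and 0.00323% at 500 cGy and 0.0242%, 0.0329% and 0.0292% at 900 cGy. At 300 cGy they took 0.0174%, 0.0144% and 0.000696%, so that the share was not ordered by dose. From 400 to 800 cGy in BALB.K all 6 rose as well (median 5.99), against 9.7% of all features that rose.

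Exocrine enzymes differed about as much but varied more at 500 cGy. All 22 had their 900 cGy arrays above their 500 cGy arrays (median 6.37), where 13.9% of all features did. Yet 4 of them passed, against 1.27% of all features that rose. Cpb1, a carboxypeptidase of pancreatic juice named after its values were seen, read -2.93, 0.24 and 5.06 at 500 cGy and 7.21, 7.37 and 7.52 at 900 cGy. Its 500 cGy arrays spread far more than the 900 cGy arrays (6.58 ± 2.06, adjusted p = 0.0748). Ctrl, a chymotrypsin-like protease, read -2.93, -2.28 and 1.40 against 3.89, 4.07 and 4.60 and rose (5.46 ± 1.43). Ptf1a, a transcription factor of acinar cells, rose by 3.37 ± 0.85. Without the third 500 cGy array 21 of 22 rose, and without any one of the other 5 arrays none did. Of 12 genes named for the Klk1 kallikrein family after the values were seen, 9 rose (median 4.64). They are near-identical copies whose probes may read one another. None of 8 islet genes passed limma's adjusted test, nor had any an unadjusted p under 0.05 (median 0.25). The insulin gene Ins2 read -2.83, -3.12 and -2.69 against -2.60, -2.69 and -2.41.

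Outside the lists, a few genes were picked after their values were seen. Bcl11a, a transcription factor of B cells and plasmacytoid dendritic cells, read 1.49, 1.44 and 1.49 at 500 cGy and 0.33, 0.34 and 0.35 at 900 cGy, with hardly any spread within a dose (-1.13 ± 0.07, 2.19-fold lower, limma adjusted p = 3.35e-08). Another Bcl11a probe went the other way (0.51) and the call was lost when the gene's probes were averaged, so that its direction is uncertain. Dapl1 read -1.08, -1.10 and -0.91 against -2.95, -2.30 and -2.59 (-1.58 ± 0.13), and Ffar2, a receptor for short-chain fatty acids, read 2.76, 2.56 and 2.48 against 1.52, 1.68 and 1.38 (-1.07 ± 0.12). Spp1, osteopontin, fell by 1.41 ± 0.27. Among rises, Hpn, the membrane protease hepsin, read -0.18, -0.16 and -0.28 against 0.63, 0.70 and 0.61 (0.85 ± 0.11), and Edn3, endothelin 3, read -1.91, -1.69 and -1.72 against -1.01, -0.92 and -0.83 (0.85 ± 0.12). None of these groups overlapped.

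The same number of cGy was added in BALB.K from 400 to 800 cGy, where 5564 features (18.8%) passed, 2864 (9.7%) higher and 2700 (9.14%) lower. The steps start from different doses, and the BALB.K arrays of both doses were on slide 3, so that strain, starting dose and slide cannot be told apart. The difference between the steps passed for 1477 features (5%), 621 (2.1%) with a more positive change in B10.BR and 856 (2.9%) with a more negative one, for 936 with a replicate block, and for 264 with slide as a fixed block. The exocrine list took 0.245%, 0.00491% and 0.00302% of the summed signal at 400 cGy in BALB.K and 0.22%, 0.836% and 0.44% at 800 cGy, with overlap, and none of its 22 genes passed there. The second and the third 400 cGy pools had almost no Y-linked signal (0.00582%, 1.49e-05% and 1.11e-05%, against 0.0049%, 0.00427% and 0.00488% at 800 cGy). The part of either in the difference was not tested.

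Lymphocyte genes fell in both strains. Over the BALB.K step 24 of 27 B cell and 24 of 27 T cell genes fell (median -0.91 and -0.84), against 9.14% of all features. The difference passed for 7 B cell genes, all with the larger fall in BALB.K, and for 1 T cell gene. Over all features 2.1% passed with a more positive change in B10.BR. Cr2 read 5.07, 5.30 and 5.26 at 400 cGy and 3.46, 3.33 and 3.42 at 800 cGy, a fall larger than in B10.BR (difference of the steps 0.74 ± 0.14, limma adjusted p = 0.00872). For Cd8a the step was -1.14 in BALB.K against -1.34 in B10.BR, and the difference did not pass (-0.20 ± 0.12, adjusted p = 0.363).

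The interferon-response list moved differently in the strains. In BALB.K 8 of 33 rose and none fell (median 0.30), against 9.7% of all features that rose. The difference of the steps was lower in B10.BR for 21 of 33 genes and higher for none (median -0.85), against 2.9% of all features. Oas3 read -0.54, -0.13 and -0.04 at 400 cGy and 0.66, 0.95 and 1.08 at 800 cGy in BALB.K, whereas in B10.BR it read 1.08, 1.02 and 0.78 and then 0.10, 0.28 and 0.05. The arrays moved up in one strain and down in the other without overlap (difference -1.95 ± 0.29, limma adjusted p = 0.00176). Irf7 read 1.81, 1.5 and 1.46 and then 3.04, 3.25 and 3.49 in BALB.K, where it rose, while its B10.BR arrays overlapped (difference -1.90 ± 0.33).

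Matrix, dendritic cell and replication genes also differed between the strains. The difference was lower in B10.BR for 9 of 29 matrix genes, 7 of 20 dendritic cell genes and 10 of 32 DNA replication genes. It was higher for 0, 1 and 0 of them. Over all features it was lower for 2.9% and higher for 2.1%. Timp1 read 1.68, 1.74 and 1.75 at 400 cGy and 2.46, 2.37 and 2.52 at 800 cGy in BALB.K, a rise where B10.BR fell (difference -1.83 ± 0.16, limma adjusted p = 1.56e-05). Cd209a read -0.15, -0.26 and -0.08 and then 0.31, 0.29 and 0.15, likewise up in BALB.K (difference -1.75 ± 0.18). Mcm5 differed by 0.30 over the BALB.K step. Cdkn1a rose in both strains and more in BALB.K, from 1.91, 1.91 and 2.15 to 3.16, 3.20 and 3.26 (difference -0.73 ± 0.14, adjusted p = 0.00901), so that its levels at 800 cGy overlapped those at 900 cGy in B10.BR.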

How the data were processed

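Intensity in arbitrary units was read from the deposited scanner output, which Agilent Feature Extraction 10.5.1.1 had background-subtracted and detrended, per the file headers. The value table of the authors holds log2 values, deposited with no normalization named in the sources used here. Set against the scanner values, differences between arrays had a slope of 1, and column medians ran from -0.12 to 0.18. Its baseline per probe is unknown, and it served as an alternative only.

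Levels are log2 processed signal less the array's own 75th percentile. Spots marked as outliers were dropped and repeated spots averaged. Probes passing the software's background test on every array of 1 group or more stayed in (42316 of 55681). RefSeq names were found by accession (26413 probes), symbol (3859) or synonym (735), and the rest (24674) carry the array's name. Each gene was read from its brightest probe on average, for 29530 features (19824 with a RefSeq symbol). Group means over the 24 arrays were fitted in limma 3.58.1 (R 4.3.3, data.table version 1.17.8) with empirical Bayes moderation, and two-sided p-values were adjusted over all features by Benjamini-Hochberg at 0.05. Shares of summed signal had an exact permutation test.

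Names in the text came from a rule: called genes with the 12 largest rises and 12 largest falls among those measurable on every array of either dose and not overlapping, at most 4 called members of each of 35 lists, a set of genes given whether called or not, and the 5 at either end of the strain difference. Only part is given, some genes are not reported here, and genes outside the rule are marked so. The comparison, lists and named genes were chosen with earlier results of these data known. In simulated data for this comparison (29530 features), 62 of 100 changes of 1 and 92 of 100 changes of 2 on the log2 scale were called, and 4.35% of calls were false. These shares hold for the simulated data only, and the false share among the calls reported here is not known. Residuals of 500 and 900 cGy arrays with the same replicate number correlated at 0.21, 0.12 and 0.24, each above 0.1. Arrays of unlike number were not compared in this way, and what a number stands for is not labelled. The main fit did not pair arrays by number, and a replicate block that does was run as an alternative. Alternatives covered scaling (quantile, median, spike-in), normexp, probe filters, outlier spots, averaging over probes, fewer arrays, an intensity trend, replicate and slide blocks, an exocrine covariate, the authors' table and leaving out each array.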

Additional observations from a re-analysis of the deposited data

Results flagged for a closer look

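The step differed between B10.BR (900 against 500 cGy) and BALB.K (800 against 400 cGy) for these genes, by limma's test of the difference itself. Values are the log2 change in B10.BR minus that in BALB.K. Strain, starting dose and slide cannot be told apart in them. Among red cell genes the difference was -2.32 for Epb42, -2.65 for Kel, -1.78 for Slc4a1, -1.92 for Hbb-bt and -1.89 for Rhd. Epb42 and Kel were not well above background on any array at 900 cGy, and Rhd on none at either B10.BR dose, so that the sizes of these 3 differences are not measured. Granule genes of precursors gave -2.39 for Ctsg, -2.39 for Mpo and -1.75 for Prtn3. The interferon-response genes gave -1.70 for Oasl1, -1.30 for Zbp1, -1.33 for Ifit1, -1.95 for Oas3, -1.90 for Irf7, -1.09 for Rsad2 and -0.97 for Isg15.

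Matrix and cytokine genes gave -1.83 for Timp1, -1.26 for Mmp13, -1.72 for Spp1, -1.17 for Ccl9 and -1.55 for Ccl2. Dendritic cell genes gave -1.75 for Cd209a, -0.59 for Flt3 and -0.81 for Fscn1. DNA repair and replication genes gave -1.06 for Fanca, -0.71 for H2ax, -1.02 for Orc1 and -1.07 for Mcm5. Cdkn1a gave -0.73, St8sia1 -0.71 and Ffar2 -0.81. The change was more positive in B10.BR for Cr2 (0.74), H2-Ob (0.94), Igfbp3 (0.51), Hpn (0.59), Antxr1 (0.61) and Chst3 (0.60).

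Among the genes with the most extreme values were Rapgef4 (3.51), Jhy (3.22), 4933426B08Rik (2.65), Spag6 (2.44) and Frmpd3 (2.44) on one side, and the myosin gene Myh1 (-3.62) and the osteocalcin genes Bglap2 (-3.23) and Bglap3 (-2.98) on the other. Rapgef4 was not well above background on any B10.BR array compared, nor 4933426B08Rik and Frmpd3 on any BALB.K array at 800 cGy, so that their sizes are not measured either, and Jhy and Spag6 were not well above it on every array. The osteocalcin copies are near-identical, so that their probes may read one another.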

How the results depend on the processing

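None of the 115 named genes called over the step reversed direction under the settings run, whereas Bax, Irf7, Gdf15, Cd4, Gata1 and Ins2, which did not pass, took either sign. The 1411 calls stayed within 1.5 times under quantile (1485) and median scaling (2045), normexp (1639), the probe filters (1157 without, 1521 stricter) and a random slide block (952). They came to 22 under spike-in scaling, 237 with only the arrays compared, 734 with slide as a fixed block, 0 with only slide 2 (limma, 2750 at an unadjusted p under 0.05), where the lone 500 cGy array is assumed to vary like the other groups, and 597 with the exocrine covariate. With that covariate and without the slide 2 array at 500 cGy, a setting chosen after the data were seen, 287 passed. Leaving out 1 array gave 604 (without the third 900 cGy array) to 1300. Rises were 26.6% of calls, 9.83% under median and 68.2% under spike-in scaling, which moved the median of all features from 0.03 to 0.19.

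With the replicate block 1471 features passed over the step, and among named genes Mmp3, Mmp13, Rsad2, Capg, Rps18 and Rps3 lost their call and no other did. The 1477 differences between the strains' steps became 925 under median scaling, 1 under spike-in scaling, 2722 with normexp, 2497 with only the arrays compared, 936 with the replicate block, 264 with slide fixed, 978 with slide random, and 487 to 1666 without 1 array. For Epb42 that difference turned to 0.0748 with normexp. The cause was not tested. Few arrays and the placement of groups on slides limit the precision, and Epb42, Kel and Reg3a have bounds only because 1 dose was not well above background.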
